A study of Homo sapiens with 16 samples.

Results

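NNMT, PDZK1IP1 and A2M are 3 of the 57820 genes counted in these files, chosen by the measured change of their RNA between 7TGP-POS and 7TGP-NEG cells, which went in one direction in MDA-MB-231 and in the other direction in MDA-MB-436. MDA-MB-231 and MDA-MB-436 are mesenchymal lines of triple-negative breast cancer, and both were stably transfected with the 7TGP vector, selected with puromycin and sorted repeatedly by flow cytometry. In this vector TCF/LEF binding sites drive eGFP, so 7TGP-POS cells had high reporter fluorescence, 7TGP-NEG cells had low fluorescence, and both carry the vector. The 4 sublines are written 231-POS, 231-NEG, 436-POS and 436-NEG. Each was grown in low serum (0.5% FBS, harvested on day 3) and in standard serum (10% FBS, harvested on day 6), with 2 replicates per group, which gives 8 groups and 16 libraries of bulk RNA-Seq. The groups are enriched sublines and no cells without the vector are among these samples, so each value is a mean over a sorted population. Fewer cells with the RNA and less RNA per cell cannot be told apart.

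NNMT, nicotinamide N-methyltransferase, moves a methyl group from S-adenosylmethionine to nicotinamide, the vitamin B3 form from which cells rebuild NAD. PDZK1IP1, also called MAP17, is a small membrane protein that binds the scaffold PDZK1 in kidney epithelium and is often raised in carcinomas. A2M, alpha-2-macroglobulin, is a large secreted protein of blood plasma that traps proteases of many classes and is then cleared by the receptor LRP1. In canonical Wnt signaling, β-catenin enters the nucleus and binds TCF/LEF factors on target genes, which is the activity that the 7TGP vector reads.

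The libraries held 27918418 to 32667756 counts under low serum and 31827130 to 46044073 under standard serum. The median SD of log2 CPM (counts scaled to 1000000 per library) between replicates was largest in standard serum 436-POS, at 0.0992, and lay at 0.0453 to 0.0705 in the other 7 groups. The mesenchymal markers VIM and ZEB1 were at 659 to 5044 and 30.6 to 150 CPM over all libraries, and CDH1, the epithelial cadherin, was at 0.401 CPM or less. SPARC, a matrix protein of mesenchymal cells, was low at 0.497 to 10.5 CPM, and the keratin gene KRT8 was at 258 to 731 CPM. Of the liver markers ALB, APOA1 and TTR, none passed 0.554 CPM, and the T cell marker CD3E was at 0.0668 CPM or less, whereas PTPRC, a leukocyte gene, reached 9.31 CPM in MDA-MB-231. CDKN2A was at 0.267 CPM or less in MDA-MB-231 and at 66.5 to 120 CPM in MDA-MB-436. Per the methods of the study, low serum RNA was depleted of ribosomal RNA and standard serum RNA was selected for polyadenylated transcripts, on different sequencers, whereas the labels name a single stranded mRNA kit for every library. This difference between the sources could not be settled here. Serum, days in culture and, by the methods, library preparation cannot be told apart, so levels were compared within a serum condition only.

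NNMT (ENSG00000166741) lies on chromosome 11 at 114128509 to 114184258 on the plus strand of GRCh37, and its reference transcript has 3 exons and 2012 bases. PDZK1IP1 (ENSG00000162366) lies on chromosome 1 at 47649254 to 47656716 on the minus strand, with 4 exons and 838 bases in its reference transcript. A2M (ENSG00000175899) lies on chromosome 12 at 9220260 to 9268825 on the minus strand, and its reference transcript has 36 exons and 4610 bases. The lncRNA A2M-AS1 runs on the plus strand of chromosome 12 from 9217759 to 9221285 and overlaps the last 1026 bases of A2M. The methods name strand-specific kits and a check of read orientation, but the strand setting behind the deposited counts is not given in the sources used here, so reads in that overlap cannot be assigned to one strand. The lncRNA ENSG00000256947 spans NNMT on the other strand and held 1 count in 1 library and none in the other libraries.

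Promoter sequence in the RefSeq table matched 1 of the 3 genes by symbol, PDZK1IP1. The 250 bases before its start (table build GRCh38.p14) occur once, without a mismatch, on chromosome 1 of GRCh37 at 47655709 to 47655958 on the minus strand. This start is the first base of the reference transcript and lies 1008 bases inside the Gencode gene, whose longest transcript begins further upstream. The window is shown because the sublines were sorted on TCF/LEF activity, so a reader can look for such letters, and capitals mark E-boxes (CANNTG).
PDZK1IP1 promoter: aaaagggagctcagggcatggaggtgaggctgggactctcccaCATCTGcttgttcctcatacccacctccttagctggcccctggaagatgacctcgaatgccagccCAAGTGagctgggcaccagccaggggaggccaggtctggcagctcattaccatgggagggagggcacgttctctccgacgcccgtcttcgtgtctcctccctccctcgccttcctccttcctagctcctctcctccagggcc
The E-boxes begin 207 and 142 bases before the start, and 61.8% of 34788 promoter windows of this length hold at least 1. On both strands the window held no TCF/LEF core (ATCAAAG), no AP-1 motif (TGANTCA), no STAT motif (TTCNNNGAA), no TATA box (TATAAA) and no GC box (GGGCGG). These motifs occur in 2.27%, 6.59%, 6.57%, 10.8% and 42.6% of the windows. The window has 62.4% G and C bases and 7 CpG pairs, and 60.3% of windows have less G and C.

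NNMT RNA was higher in 7TGP-POS cells of MDA-MB-231 and lower in 7TGP-POS cells of MDA-MB-436, in both serum conditions. In low serum, NNMT was at 14.3 and 15.3 CPM in 231-NEG replicates 1 and 2 and at 47.9 and 48.5 CPM in 231-POS. In MDA-MB-436 it was at 31.4 and 33.2 CPM in 7TGP-NEG and at 11.8 and 11.6 CPM in 7TGP-POS. The groups did not overlap in either line, as was the case for 65.7% of all genes tested in MDA-MB-231 and 74% in MDA-MB-436 (66.9% and 73.2% in standard serum). The 231-NEG level was nearer to 436-POS than to its own 7TGP-POS counterpart. In standard serum, NNMT was at 33.7 and 33.2 CPM in 231-NEG and at 76.7 and 72.4 CPM in 231-POS. In MDA-MB-436 it was at 50.8 and 46.7 CPM in 7TGP-NEG and at 19.6 and 19.4 CPM in 7TGP-POS. The order of the 4 groups was the same in both serum conditions, namely 231-POS, 436-NEG, 231-NEG and 436-POS, from high to low. In CPM, no neighbors in this order overlapped in their replicates. In the deposited length-scaled levels (TPM), the highest 2 groups overlapped in low serum. There 231-POS was at 37.5 and 34.0 TPM and 436-NEG at 34.1 and 33.2 TPM.

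As a description of the values that chose the gene, the log2 fold change of NNMT in 7TGP-POS over 7TGP-NEG was 1.71 ± 0.07 (SE, n = 2 per group) in MDA-MB-231 and -1.48 ± 0.08 in MDA-MB-436 in low serum. In standard serum it was 1.10 ± 0.08 and -1.38 ± 0.09. In linear terms NNMT was 3.28-fold higher and 2.78-fold lower in 7TGP-POS cells in low serum, and 2.15-fold higher and 2.599-fold lower in standard serum. The value in MDA-MB-231 in standard serum was the nearest to 1 among the changes of the 3 genes, which have no value under it.

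PDZK1IP1 RNA moved in the same directions as NNMT, higher with the reporter in MDA-MB-231 and lower in MDA-MB-436, but on very different levels in the lines. In low serum, PDZK1IP1 was at 2.32 and 2.70 CPM in 231-NEG and at 10.1 and 9.77 CPM in 231-POS. In MDA-MB-436 it was at 71.6 and 74.1 CPM in 7TGP-NEG and at 24.2 and 23.2 CPM in 7TGP-POS. All 4 MDA-MB-436 libraries were above all 4 MDA-MB-231 libraries. In standard serum, PDZK1IP1 was at 0.800 and 0.848 CPM in 231-NEG and at 6.11 and 4.80 CPM in 231-POS. In MDA-MB-436 it was at 84.7 and 78.4 CPM in 7TGP-NEG and at 12.5 and 15.01 CPM in 7TGP-POS. The order from high to low was 436-NEG, 436-POS, 231-POS and 231-NEG in both serum conditions, with no overlap between neighbors.

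The log2 fold change of PDZK1IP1 in 7TGP-POS over 7TGP-NEG was 1.99 ± 0.12 (SE, n = 2 per group) in MDA-MB-231 and -1.63 ± 0.07 in MDA-MB-436 in low serum. In standard serum it was 2.67 ± 0.19 and -2.63 ± 0.11. These are a 3.98-fold higher and a 3.09-fold lower level in 7TGP-POS cells in low serum, and 6.35-fold and 6.18-fold in standard serum. The 4 values chose the gene and are a description. The distance between the lines was therefore smaller among 7TGP-POS cells, at 9.93 ± 0.23 against 23.7 ± 0.70 CPM (mean ± SD, n = 2), than among 7TGP-NEG cells, at 2.51 ± 0.27 against 72.9 ± 1.77 CPM, in low serum.

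A2M moved the other way, lower with the reporter in MDA-MB-231 and higher in MDA-MB-436, and it was a low RNA throughout. In low serum, 231-NEG held 80 and 71 counts (2.61 and 2.37 CPM) and 231-POS held 25 and 14 counts (0.835 and 0.494 CPM). The 436-NEG libraries held 3 and 1 counts (0.0918 and 0.0349 CPM) and 436-POS held 63 and 61 counts (1.99 and 2.18 CPM). The groups did not overlap within a line, and 231-NEG stood above 436-POS by little more than the spread of the replicates. In standard serum, 231-NEG held 11 and 9 counts (0.303 and 0.283 CPM) and 231-POS held 2 and 0. The 436-NEG libraries held 0 and 1 counts and 436-POS held 5 and 1. The 231-NEG level was above the other 3 groups in standard serum, and the order of those 3 could not be read at this depth. A count of 0 allows up to 3 counts, which is 0.0836 CPM in 231-POS replicate 2 and 0.0888 CPM in 436-NEG replicate 1.

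The genes were chosen for these contrasts, so the following ratios are a description, and their intervals cover counting error over pooled replicates only. Scaled to library totals, A2M in low serum was 3.72-fold higher in 231-NEG than in 7TGP-POS (exact 95% interval 2.603 to 5.44, 151 against 39 counts). In MDA-MB-436 it was 31.9-fold higher in 7TGP-POS than in 7TGP-NEG (12.2 to 119, 124 against 4 counts). In standard serum the ratio was 10.2 in favor of 7TGP-NEG in MDA-MB-231 (2.48 to 90.2, 20 against 2 counts). In MDA-MB-436 it was 5.31 in favor of 7TGP-POS, with an interval of 0.644 to 244 (6 against 1 counts). The fitted log2 fold changes were -1.88 ± 0.27 (SE, n = 2 per group) and 4.90 ± 0.46 under low serum. They were -3.27 ± 0.93 and 2.09 ± 1.38 under standard serum, and they depend on the prior count where a group held 3 counts or fewer per library.

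**Figure D1:**
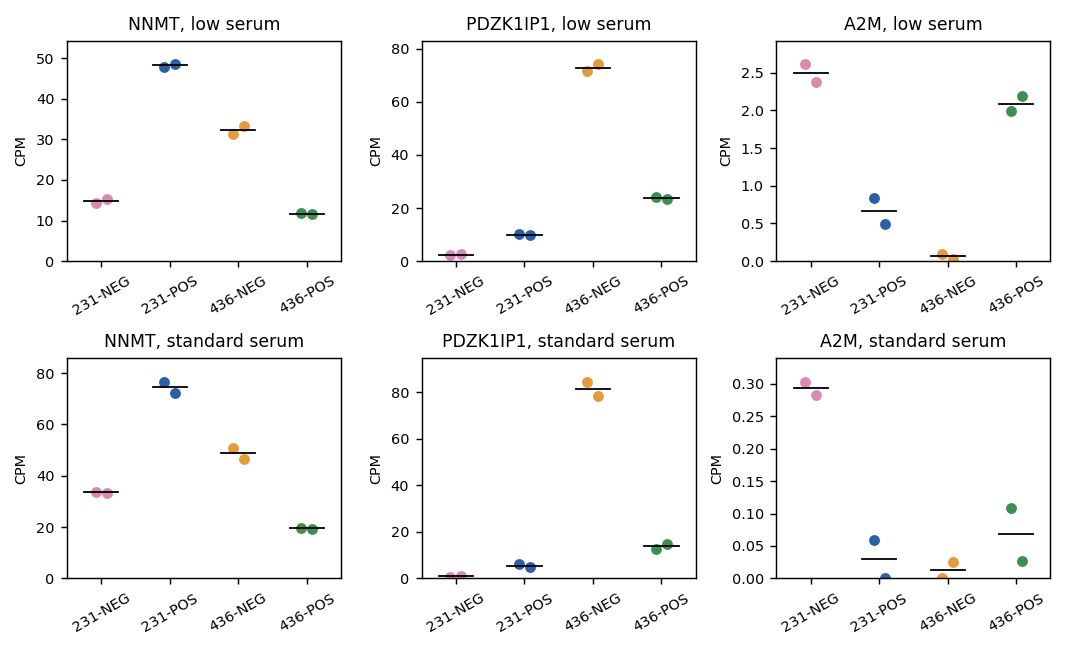
CPM of NNMT, PDZK1IP1 and A2M in each library, by group, in low serum (upper row) and standard serum (lower row). Points are the 2 replicates and bars are their mean, and each panel has its own axis from 0. NNMT alternates between the lines, PDZK1IP1 is highest in 436-NEG, and A2M reaches 2.61 CPM under low serum and 0.303 CPM under standard serum.

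**Figure D2:**
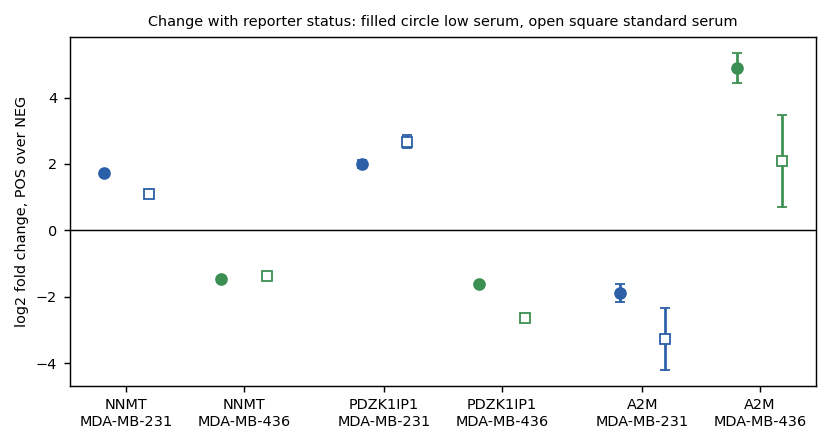
Log2 fold change of 7TGP-POS over 7TGP-NEG for the 3 genes by cell line, with bars of 1 SE from the edgeR fit (n = 2 per group). NNMT and PDZK1IP1 lie above 0 in MDA-MB-231 and below 0 in MDA-MB-436, A2M does the reverse, and the widest bars belong to A2M in standard serum.

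The plot of levels and the plot of fold changes show the 3 genes side by side. The rule that chose them used these contrasts, so no test of them is given. A gene is called here when its edgeR adjusted p (Benjamini-Hochberg) is under 0.05 and it changed at least 2-fold, which is 1 on the log2 scale. Of the 16069 protein-coding genes tested in low serum, 5.9% were called in MDA-MB-231 (3.5% higher and 2.4% lower in 7TGP-POS) and 10.5% in MDA-MB-436 (6.52% and 4.03%). Of 15414 genes in standard serum, the shares were 7.69% (4.96% and 2.72%) and 12.5% (6.47% and 6.06%). The calls went in opposite directions in the lines for 93 genes (0.579%) under low serum and for 147 (0.954%) under standard serum, and 42 were in both sets (45.2% of the first and 28.6% of the second). All 42 shared genes kept their directions, 32 higher in 231-POS and 10 higher in 436-POS. CPM of 7TGP-POS and 7TGP-NEG replicates did not overlap, in opposite directions in the lines, for 24.9% of all genes tested under low serum and 24.1% under standard serum. The choice of the 3 genes fixes that their changes are opposite, so only their place by size is given. Ordered by the smaller of the fold changes in the lines, NNMT was number 38 of 93 and 120 of 147, PDZK1IP1 number 28 of 93 and 9 of 147, and A2M number 15 of 93.

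**Figure D3:**
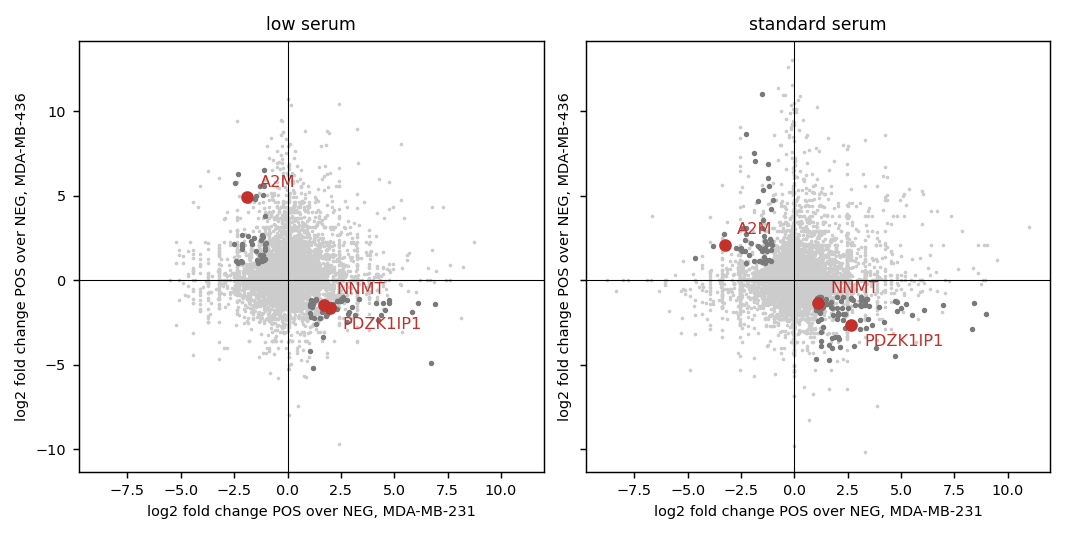
Log2 fold change of 7TGP-POS over 7TGP-NEG in MDA-MB-231 (x axis) against MDA-MB-436 (y axis) for all tested genes (light gray), with genes called in opposite directions in dark gray and the 3 genes in red. The left panel is low serum and the right panel is standard serum. NNMT and PDZK1IP1 sit in the lower right and A2M in the upper left of both panels.

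The difference between the lines, averaged over 7TGP-POS and 7TGP-NEG, was not used to choose the genes and could be tested. The methods give a different culture medium for each line, so line and medium cannot be told apart in this difference. PDZK1IP1 was lower in MDA-MB-231 than in MDA-MB-436, with a log2 difference of -2.94 ± 0.06 (SE) under low serum and -3.77 ± 0.10 under standard serum (edgeR adjusted p = 2.66e-34 and 2.59e-16). NNMT was higher in MDA-MB-231 on average, by 0.57 ± 0.05 under low serum and 0.90 ± 0.06 under standard serum (edgeR adjusted p = 1.09e-12 and 5.43e-11). In low serum the NNMT difference was 0.18 ± 0.08 on log2(TPM + 1), where TPM is the length-scaled level deposited with the counts (limma adjusted p = 0.0468). The average hides a crossing in NNMT, since MDA-MB-231 was higher among 7TGP-POS cells and lower among 7TGP-NEG cells. For A2M in low serum the line average in MDA-MB-231 minus that in MDA-MB-436 was 1.88 ± 0.32 (edgeR adjusted p = 1.04e-06), with 0.17 ± 0.06 on log2(TPM + 1) and 0.73 ± 0.20 on log2(TPM + 0.1). A2M also crossed, since 231-POS at 0.66 CPM was below 436-POS at 2.09 CPM and 231-NEG at 2.49 CPM was above 436-NEG at 0.063 CPM, which is 4 counts over both libraries. The average therefore does not describe each subline. For A2M in low serum the few counts of 436-NEG enter both this average and the change that chose the gene. That test is therefore not fully independent of the choice. In standard serum the A2M difference of 1.63 ± 1.01 did not pass the test (edgeR adjusted p = 0.141), and it was -0.037 without 231-POS replicate 1. Of all genes tested, 83.4% under low serum and 84.6% under standard serum passed this test of the lines.

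Per length, the levels of the 3 genes were far apart. In low serum the mean TPM over 2 replicates in 436-NEG was 153.9 ± 5.5 (SD) for PDZK1IP1, 33.6 ± 0.66 for NNMT and 0.035 ± 0.021 for A2M. In 231-POS the order changed, with NNMT at 35.8 ± 2.5, PDZK1IP1 at 14.97 ± 1.51 and A2M at 0.23 ± 0.10 TPM. In standard serum, PDZK1IP1 ran from 2.16 ± 0.04 TPM in 231-NEG to 207.1 ± 8.7 TPM in 436-NEG, while NNMT ran from 25.1 ± 0.39 TPM in 436-POS to 95.0 ± 5.0 TPM in 231-POS. By mean TPM over the 8 libraries, PDZK1IP1 stood above 86.46% of tested genes under low serum and 81.94% under standard serum, NNMT above 67.57% and 79.03%, and A2M above 17.79% and 2.608%.

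A2M-AS1, the antisense neighbor of A2M, was counted in 436-NEG, where A2M was near 0, and fell in 231-POS. In low serum A2M-AS1 held 23 and 21 counts in 231-NEG, 1 and 3 in 231-POS, 86 and 72 in 436-NEG and 106 and 121 in 436-POS. In 436-NEG it was at 2.57 ± 0.08 CPM (SD, n = 2) while A2M was at 0.063 ± 0.040 CPM. Its log2 fold change in 7TGP-POS was -3.29 ± 0.59 (SE) in MDA-MB-231 and 0.55 ± 0.22 in MDA-MB-436 (edgeR adjusted p = 1.28e-06 and 0.0364), so it fell in MDA-MB-231 and stayed under the fold threshold in MDA-MB-436. In standard serum it held 6 and 8 counts in 231-NEG, 0 and 0 in 7TGP-POS, 86 and 125 in 436-NEG and 119 and 96 in 7TGP-POS. The fall in MDA-MB-231 was called again (edgeR adjusted p = 0.000344), and the change of -0.21 ± 0.22 in MDA-MB-436 did not pass the test (adjusted p = 0.503). How many of these reads come from the shared 1026 bases was not tested.

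**Figure D4:**
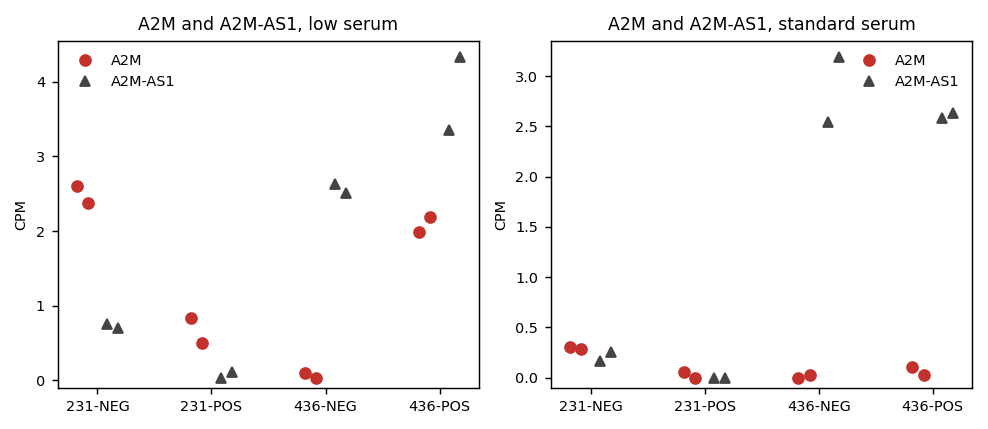
CPM of A2M (circles) and A2M-AS1 (triangles) in each library by group, in low serum (left) and standard serum (right). In 436-NEG in low serum A2M-AS1 is at 2.57 CPM on average and A2M at 0.063 CPM, and in MDA-MB-231 both are lower in 7TGP-POS cells.

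The genes beside the 3 loci were compared by taking the 3 nearest tested protein-coding genes on each side. They were taken within each serum condition, so the neighbors are not all the same in both, and some lie far from the locus. Of all genes tested, 5.9% were called in MDA-MB-231 and 10.5% in MDA-MB-436 in low serum. In standard serum these shares were 7.69% and 12.5%. The counts of called neighbors were not tested against these shares and are a description. None of the 6 neighbors of PDZK1IP1 was called in either line or serum condition, among them TAL1, a blood transcription factor gene that lies 25246 bases away. Under the fold threshold, 2 of them had small changes in low serum. STIL had 0.11 ± 0.06 in MDA-MB-231 and -0.47 ± 0.05 in MDA-MB-436 (edgeR adjusted p = 0.135 and 6.17e-10). CMPK1 had 0.19 ± 0.05 and -0.31 ± 0.05 (edgeR adjusted p = 0.00368 and 3.6e-06). In standard serum no value of STIL (0.23 and -0.02) or CMPK1 (-0.0008 and -0.03) passed the test. Of the 6 neighbors of NNMT, 1 was called under low serum and 2 under standard serum. Among them was HTR3A, 267474 bases away. HTR3A, a serotonin receptor subunit, fell in MDA-MB-436 with a log2 fold change of -2.31 ± 0.38 under low serum and -5.40 ± 0.50 under standard serum (edgeR adjusted p = 1.99e-06 and 2.19e-07), from 1.60 and 2.13 CPM in 7TGP-NEG. C11orf71, 77907 bases from NNMT, rose in MDA-MB-231 in standard serum by 1.11 ± 0.19 (adjusted p = 0.000202), and its value in MDA-MB-436 was 0.65 ± 0.20. Of the 6 neighbors of A2M, 1 was called under low serum and 2 under standard serum. CLEC2B lies 736143 bases from A2M, CLEC2D 548740 and KLRG1 56904. CLEC2B, a lectin gene, rose in MDA-MB-436 in low serum by 1.60 ± 0.36, CLEC2D rose in MDA-MB-231 in standard serum by 1.85 ± 0.29, and KLRG1, a lymphocyte receptor gene, fell there by 1.89 on the log2 scale from 8 and 10 counts to 4 and 1. None of these neighbors was called in opposite directions in the lines.

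**Figure D5:**
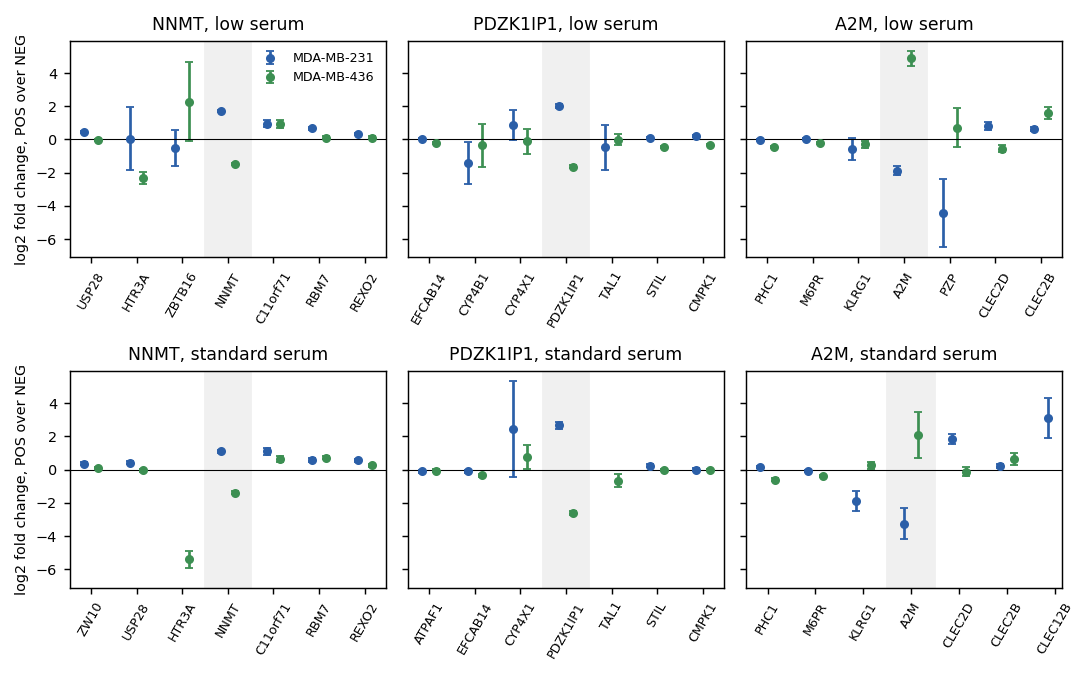
Log2 fold change of 7TGP-POS over 7TGP-NEG, with bars of 1 SE (n = 2 per group), for each of the 3 genes (gray band) and the 3 nearest tested protein-coding genes on each side, in genome order, in low serum (upper row) and standard serum (lower row). Points are left out where all libraries of a line held 0 counts. Blue is MDA-MB-231 and green is MDA-MB-436. HTR3A, 267474 bases from NNMT, reaches -5.40 in MDA-MB-436 in standard serum. The 3 genes were chosen for the opposite signs that the gray bands show.

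Genes that share the biochemistry of NNMT were examined in 2 lists. For these and the later lists, the shares among all genes tested serve as a background. In low serum, 3.5% were called higher and 2.4% lower in MDA-MB-231, and 6.52% and 4.03% in MDA-MB-436. In standard serum the shares were 4.96% and 2.72%, and 6.47% and 6.06%. The counts in the lists were not tested against these shares and are a description. In the list of NAD and nicotinamide metabolism, 2 of 29 tested genes rose in MDA-MB-231 and 6 in MDA-MB-436 in low serum, with none lower, and in standard serum 3 and 4 rose with none lower. The medians in low serum were -0.087 and -0.053 on the log2 scale, beside -0.014 and 0.014 for all genes tested. In standard serum the medians were 0.079 and -0.26, beside 0 and 0.005 for all genes. KYNU, kynureninase of the tryptophan route to NAD, rose in both lines, by 1.14 ± 0.08 and 1.40 ± 0.21 in low serum (edgeR adjusted p = 1.61e-15 and 4.54e-07). In MDA-MB-231 the value was 0.89 on log2(TPM + 1), under the fold threshold. NT5E, the cell surface 5′-nucleotidase CD73, rose in MDA-MB-436 by 1.70 ± 0.06 under low serum and 1.79 ± 0.08 under standard serum (adjusted p = 1.7e-26 and 3.94e-12), while its values in MDA-MB-231 were 0.14 and -0.10. NMNAT2, which joins nicotinamide mononucleotide and ATP into NAD, rose in MDA-MB-436 from 0.404 ± 0.078 to 4.89 ± 0.48 CPM in low serum (log2 fold change 3.55 ± 0.20, edgeR adjusted p = 2.09e-18). NAMPT, the enzyme that returns nicotinamide to NAD, was picked out after its values were seen. Its log2 fold changes were 0.60 ± 0.05 in MDA-MB-231 and -0.78 ± 0.05 in MDA-MB-436 in low serum. Under standard serum they were 0.61 ± 0.08 and -0.50 ± 0.08. All 4 values passed the adjusted p (edgeR, 7.39e-13, 1.24e-16, 8.14e-06 and 3.75e-05) and were under the fold threshold.

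In the list of the methionine cycle and S-adenosylmethionine-dependent enzymes, 1 of 24 tested genes rose in MDA-MB-231 in low serum, and 3 rose and 1 fell in MDA-MB-436. In standard serum, 1 fell in MDA-MB-231, and 2 rose and 1 fell in MDA-MB-436. MTRR, which reactivates methionine synthase, fell in MDA-MB-436 from 131.3 ± 0.61 to 45.1 ± 2.0 CPM in low serum, and its log2 fold change was -1.56 ± 0.06 (edgeR adjusted p = 7.16e-25). In MDA-MB-231 its value was 0.62 ± 0.06, under the fold threshold.

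Among apical PDZ scaffolds, the transporters they hold and NUMB, a list built around PDZK1IP1, 1 of 13 tested genes fell in MDA-MB-231 in low serum and none was called in MDA-MB-436. In standard serum, none of 11 was called in MDA-MB-231 and 1 fell in MDA-MB-436. That gene, SLC9A3, the sodium-proton exchanger NHE3, fell from 17.0 ± 1.2 to 1.30 ± 0.06 CPM (log2 fold change -3.76 ± 0.17, edgeR adjusted p = 2.93e-11), and it held no count in MDA-MB-231 in standard serum. PDZK1 itself, named as the partner of PDZK1IP1 and outside the rule for named genes, had log2 fold changes of 0.23 ± 0.57 and 0.11 ± 0.56 in low serum and did not pass the test (adjusted p = 0.796 and 0.893).

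The relatives and receptors of A2M formed a list of 11 tested genes in low serum, of which 1 rose and 1 fell in MDA-MB-231 and 1 rose in MDA-MB-436. In standard serum, 1 of 9 rose and 1 fell in MDA-MB-231, and 3 fell in MDA-MB-436, where the median was -0.669 beside 0.005 for all genes. The other medians of this list were 0.094 in MDA-MB-231 in standard serum, and 0.056 in MDA-MB-231 and -0.016 in MDA-MB-436 in low serum. C3, the central complement protein and a relative of A2M, rose in MDA-MB-231 from 5.91 ± 0.10 to 105.4 ± 4.1 CPM in low serum (log2 fold change 4.17 ± 0.07, edgeR adjusted p = 4.54e-35), and it stood at 1059 ± 28.5 and 1210 ± 8.2 CPM in MDA-MB-436. C4B, another complement protein, had the directions of A2M in low serum, with log2 fold changes of -2.14 ± 0.19 and 1.99 ± 0.10 (edgeR adjusted p = 1.25e-12 and 1.15e-20). In standard serum C4B fell in MDA-MB-231 by 1.15 on the log2 scale (adjusted p = 0.00746), a call that was lost when 1 replicate was left out (adjusted p up to 0.0962). C4B is nearly identical to C4A, so the split of their reads is uncertain. LRP1, the receptor that clears A2M, fell in MDA-MB-436 in standard serum by 1.24 on the log2 scale (adjusted p = 0.000291), and its value in low serum was -0.70 ± 0.05.

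Of the proteases that A2M is known to bind, 3 of 19 tested genes rose and 1 fell in MDA-MB-231 in low serum, and 8 rose and 2 fell in MDA-MB-436. The medians were 0.41 and 0.93 on the log2 scale, beside -0.014 and 0.014 for all genes tested. In standard serum, 6 of 18 rose and 1 fell in MDA-MB-231, and 3 rose and 1 fell in MDA-MB-436. The medians of the proteases were then 0.15 and 0.35, beside 0 and 0.005 for all genes. MMP1, interstitial collagenase, rose in both lines in low serum, on very different levels. In MDA-MB-231 it went from 399 ± 7.8 to 1311 ± 58 CPM, with a log2 fold change of 1.73 ± 0.06 (edgeR adjusted p = 3.68e-23). In MDA-MB-436 it went from 1.55 ± 0.33 to 3.82 ± 0.62 CPM, with a log2 fold change of 1.29 ± 0.16 (edgeR adjusted p = 3.13e-08). MMP2, gelatinase A, rose in MDA-MB-436 from 3.96 ± 0.16 to 79.3 ± 3.3 CPM in low serum, with a log2 fold change of 4.31 ± 0.10 (edgeR adjusted p = 1.83e-32). PRSS3, mesotrypsin, had the directions of A2M in both serum conditions, falling in MDA-MB-231 from 23.0 ± 1.8 to 7.28 ± 0.93 CPM in low serum and rising in MDA-MB-436 from 0.048 ± 0.019 to 0.236 ± 0.021 CPM (from 2 and 1 counts to 7 and 7). PRSS3 has near-identical trypsinogen copies, so its counts are uncertain.

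Acute-phase genes and regulators of STAT3, the axis that drives A2M in rodent liver, made up the last list. In MDA-MB-231, 4 of 19 tested genes rose and 1 fell in low serum, and 3 of 18 rose and 1 fell in standard serum. In MDA-MB-436, 1 rose and 1 fell in low serum, and 2 rose and 3 fell in standard serum. The cytokine gene IL6 rose in MDA-MB-231 by 2.85 ± 0.14 under low serum and 3.07 ± 0.09 under standard serum (edgeR adjusted p = 4.51e-20 and 1.5e-14), and in MDA-MB-436 its values were -0.39 ± 0.08 and 1.40 ± 0.07. IL11, a cytokine of the same family, rose in both lines in low serum, by 2.36 ± 0.07 in MDA-MB-231 and 3.34 ± 0.17 in MDA-MB-436 (edgeR adjusted p = 9.3e-29 and 3.43e-20). SAA1, an acute-phase protein gene, rose in MDA-MB-231 by 2.05 ± 0.10 in low serum. OSMR, a receptor chain for oncostatin M, fell in MDA-MB-436 from 358 ± 1.9 to 118 ± 3.9 CPM in low serum and stood at 118 ± 4.9 and 119 ± 1.9 CPM in MDA-MB-231.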

How the data were processed

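Bulk RNA-Seq of 16 libraries (2 biological replicates in each of 8 groups) was used. The authors aligned reads to hg19 (GRCh37) with STAR, counted them on Gencode v19 genes and deposited these counts as whole numbers with no normalization. The TPM values were also deposited by the authors, with no calculation stated. Symbols and biotypes came from Gencode v44 lifted to GRCh37 (96.05% of 57820 identifiers matched).

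Each serum condition was fitted alone. Protein-coding genes were kept where the 8 libraries together held 10 counts or more, and were tested with edgeR's robust quasi-likelihood test, with TMM factors, 4 groups and Benjamini-Hochberg adjustment over all genes. A call needs an adjusted p under 0.05 and a log2 change of 1 or more in size. SE was taken as the size of the log2 change over the square root of F. A2M-AS1 was fitted with all biotypes. CPM are counts scaled to the library total. With 2 replicates per group, p-values measure the spread between these cultures. Precision follows from 27918418 to 46044073 counts per library, and a library with 0 counts allows up to 3 counts.

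The 3 genes and 6 gene lists were chosen with earlier results of these data known. The text names these genes, up to 3 called genes from each list in each comparison (lowest adjusted p first), the 3 nearest tested genes on each side, overlapping genes, the 5 genes most alike, and markers. Those printed are a subset chosen after their values were seen. Alternatives were DESeq2 and its size factors, no filter, all biotypes, adjusted p alone, log2(TPM + 1) and log2(TPM + 0.1) with limma, a replicate block, and leaving out each replicate. The scripts were tested on simulated data. Software was edgeR 4.0.16, limma 3.58.1 and DESeq2 1.42.0 under R 4.3.3, and pandas 2.3.3 and matplotlib 3.10.9 under Python 3.11.15.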

Additional observations from a re-analysis of the deposited data

Results flagged for a closer look

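The 3 genes were chosen for opposite changes, and in CPM both replicates of each line moved one way while those of the other line moved the opposite way. For A2M in standard serum this rests on library size alone, since the closest libraries of 436-POS and 436-NEG held 1 count each and their order could not be read. As log2 changes in MDA-MB-231 minus those in MDA-MB-436, the differences in low and standard serum were 3.19 and 2.48 for NNMT, 3.62 and 5.29 for PDZK1IP1, and -6.78 and -5.36 for A2M. These differences were not tested, since the choice of genes used them, and the value of A2M in standard serum rests on 11 counts or fewer per library.

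The same difference between the lines was tested in the edgeR model for 24 of the named list, neighboring and overlapping genes, in each serum condition. STIL and CMPK1 were not among the 24. Of these 24 genes, 18 passed in at least 1 serum condition, which gave 32 results with adjusted p-values up to 0.0379. Genes named for a call in a line are more likely to pass by that choice. The share of all genes that pass was not computed, so the number is a description. TNIP3, MCTP2 and PLIN2, named for their similar profiles, were not tested for this difference. In the same direction as NNMT and PDZK1IP1, the differences in low and standard serum were 3.99 and 5.91 for C3, 3.25 and 1.67 for IL6, 2.17 and 1.68 for MTRR, 1.38 and 1.10 for NAMPT, 1.38 and 1.97 for CLEC2D, 0.76 and 1.64 for LRP1, 1.65 and 0.89 for OSMR, and 1.56 and 2.89 for SAA1. In standard serum it was 1.09 for MMP1. In the direction of A2M, they were -3.84 and -5.90 for A2M-AS1, -3.81 and -6.34 for PRSS3, -3.68 and -5.72 for NMNAT2, -4.13 and -1.21 for C4B, -1.56 and -1.89 for NT5E, and -0.98 and -3.02 for IL11. In low serum MMP2 differed by -3.77 and CLEC2B by -0.95, and in standard serum KLRG1 differed by -2.16. The sign of a difference does not say that the lines moved in opposite directions. IL11 rose in both lines in low serum, by 2.36 and 3.34, and IL6 rose in both in standard serum, by 3.07 and 1.40. NAMPT was picked out after its values were seen. The value of A2M-AS1 in standard serum involves a group with 0 counts, and those of PRSS3 involve a group with 2 counts or fewer per library, so their size depends on the prior count.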

How the results depend on the processing

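Recomputing the 24 summary results and changes under the alternative settings gave 366 values, of which 323 counted as the same. Numbers of called genes and fold changes were judged by size. Line differences were judged by direction and adjusted p only, so the smaller NNMT and A2M line differences on log2(TPM + 1) in low serum counted as the same. By adjusted p alone, 6250 and 8348 genes under low serum and 5084 and 7631 under standard serum were called (MDA-MB-231 before MDA-MB-436 throughout), with 1866 and 1411 in opposite directions. On log2(TPM + 1) these were 314, 795, 522 and 941, with 19 and 29 in opposite directions. On that scale, log2 fold changes in low serum were 1.44 and -1.63 for NNMT, 1.59 and -1.85 for PDZK1IP1, and -0.67 and 0.82 for A2M. On log2(TPM + 0.1) they were 1.503 and -1.72, 1.77 and -1.88, and 2.79 for A2M in MDA-MB-436. In standard serum, log2(TPM + 1) gave -1.25 for NNMT in MDA-MB-436, 2.25 for PDZK1IP1 in MDA-MB-231, and -0.21 and 0.049 for A2M; log2(TPM + 0.1) gave -1.28 for NNMT in MDA-MB-436, and -1.24 and 0.40 for A2M. The A2M line difference in standard serum passed the test there, at 0.092 and 0.54. A larger pseudocount shrinks changes of low genes by construction; the cause of the other shifts was not tested.

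Leaving out each replicate, with the lone sample of a group assumed to vary like the other groups, gave, in low serum, 4.44 to 5.67 for A2M and -1.57 to -1.43 for NNMT and -1.70 to -1.58 for PDZK1IP1 in MDA-MB-436. In standard serum it gave 1.04 to 1.16 for NNMT in MDA-MB-231, -6.61 to -2.28 (both from leaving out a 231-POS replicate) and 0.76 to 4.34 (without 436-POS replicate 1 and 436-NEG replicate 2) for A2M, and -0.037 to 2.76 for the A2M line difference, which reversed without 231-POS replicate 1. Depth limits A2M in standard serum. Of 416 alternatives for named list genes, 38 lost a call and none reversed.

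The labels share replicate numbers, but replicate deviations correlated at -0.133 to 0.035 under low serum and -0.029 to 0.217 under standard serum, over 0.1 in 4 of 6 pairs of groups under standard serum and in none under low serum. As this was not so for every pair, the numbers were not taken to pair the samples. With a replicate block, 926, 1667, 1170 and 1938 genes were called, with 91 and 145 in opposite directions.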

Other observations

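The genes with the most similar profiles were found by Pearson's r of log2 CPM over the 8 libraries of a serum condition, ranked by the lower of both r values among 12490 genes whose mean reached 1 CPM. The 8 libraries share cell line and reporter status, so r is given as a description. NNMT was most like PDIA4, a chaperone of the endoplasmic reticulum (r = 0.952 under low serum and 0.968 under standard serum), and DDIT4, a stress-induced inhibitor of mTORC1 (0.957 and 0.945), followed by MGAT5, DSG2 and EXT2. PDZK1IP1 was most like TNIP3, a regulator of NF-κB signaling (0.994 and 0.994), followed by MAGED1, WWC1, MCTP2 and RIT1. Genes found this way share the pattern of PDZK1IP1 by choice, so their changes are a description. The log2 fold changes of TNIP3 were 2.03 and -1.83 under low serum and 2.06 and -2.07 under standard serum, and those of MCTP2 were 3.16 and -2.06, and 3.37 and -2.85.

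A2M was most like ZNF830 (0.925 and 0.925), followed by MED29, DNAJA2, PLIN2 and VPS35, and these are genes with small changes except PLIN2, the coat protein of lipid droplets, whose log2 fold changes were 1.05 in MDA-MB-436 under low serum and -1.05 in MDA-MB-231 under standard serum. Among the 3 genes, r was 0.21 and -0.02 between NNMT and PDZK1IP1, -0.63 and -0.24 between NNMT and A2M, and -0.78 and -0.80 between PDZK1IP1 and A2M, in low and standard serum. Every r of A2M in standard serum, also those that ranked the genes most like it, rests on 11 counts or fewer of A2M per library and is uncertain.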
